A study of Mus musculus with 40 samples.

Results

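Mouse c-kit+ bone marrow cells lacking both Dnmt3a and Sting were compared with c-kit+ cells lacking Sting alone, so that the comparison shows what loss of Dnmt3a went with when Sting was already missing. Its members are the 5 poly(A) RNA libraries whose labels give these genotypes, 3 labelled DNMT3A/STING double knockout (double knockout below) and 2 labelled STING knockout (Sting knockout), out of 40 libraries in the series. A further 2 wild-type and 2 DNMT3A knockout (Dnmt3a knockout) c-kit+ libraries entered the same fit, where they contributed to the estimate of the spread and gave the matching contrast with Sting present. All 9 are bulk libraries of bone marrow cells positive for c-kit, the receptor that marks stem and progenitor cells, made with a modified SMART-Seq2 protocol. The series describes its Dnmt3a model as floxed Dnmt3a deleted by Mx1-Cre, a recombinase driven by an interferon-inducible promoter. The sources used here do not give how Cre was induced, whether the Sting knockout and wild-type mice carried Cre or received the inducer, the kind of Sting allele, or the strain and age of the mice. The labels do not say whether libraries of a group came from separate mice, so every p-value measures only the spread between these libraries.

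Dnmt3a is a de novo DNA methyltransferase, which places methyl groups on previously unmethylated CpG sites, and its loss in blood stem cells is one of the commonest events in clonal haematopoiesis. Sting, encoded by Tmem173, is the adaptor that the cytosolic DNA sensor cGAS activates through a cyclic dinucleotide. It recruits the kinase Tbk1, the transcription factor Irf3 is phosphorylated, and type I interferon and interferon-stimulated genes follow. Repeats such as endogenous retroviruses are normally held silent by DNA methylation and are one possible source of nucleic acid for such sensors.

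The 5 libraries held 31.2 to 36.5 M gene reads and 1.13 to 1.26 M reads assigned to transposable elements. The progenitor marker Kit was at 298 to 349 CPM (read counts scaled to the library's gene reads) and the promyelocyte enzyme Mpo at 9926 to 13126 CPM. The X-inactivation transcript Xist was at 1810 CPM in double knockout 1 and below 1 CPM in the other 4 libraries, which instead held transcripts of the Y chromosome. Both Dnmt3a knockout libraries also carried Xist, and both wild-type libraries carried Y transcripts. Late neutrophil genes set double knockout 1 and 2 apart from double knockout 3: their summed level was 27081, 38526 and 13748 CPM in double knockout 1, 2 and 3, against 14109 and 14688 CPM in the Sting knockout pair. Unless stated otherwise, levels are CPM scaled by the trimmed mean of M values (TMM), and differences are log2 fold changes, double knockout minus Sting knockout, from edgeR's quasi-likelihood fit of all 9 libraries. "With Sting" denotes the contrast of Dnmt3a knockout minus wild type, which shares no library with the double knockout contrast.

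The targeted gene was lower in the double knockout. Dnmt3a (chr12:3801559-3914443, GRCm38) was at 78.5 and 97.8 CPM in the Sting knockout libraries and at 41.9, 50.9 and 49.95 CPM in the double knockout. Every double knockout library lay below both Sting knockout libraries, and roughly as many reads remained as in the Dnmt3a knockout, at 48.0 and 47.8 CPM. Wild-type libraries held 89.1 and 79.2 CPM. The difference was -0.89 ± 0.117 (log2 ± SE), with an adjusted p of 0.0892 from edgeR and 1.31e-07 from DESeq2, so the deleted gene itself missed the threshold of 0.05 in the quasi-likelihood test. Leaving out Sting knockout 1 gave -1.04 with an edgeR adjusted p of 0.0417. A gene-level count adds reads over the whole gene and does not show which exons remain. Tmem173 was at 10.3 and 9.72 CPM in the Sting knockout and 10.4, 10.5 and 11.5 CPM in the double knockout, and at 54.2 and 64.5 CPM in wild type and 43.5 and 46.3 CPM in the Dnmt3a knockout. All 5 Sting-deficient libraries lay far below the 4 libraries with Sting.

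No gene reached an adjusted p below 0.05 in the quasi-likelihood test. Of 16026 genes tested, 0 (0%) were called by edgeR and 0 by limma-voom, while DESeq2 called 131 of the 13353 genes to which it gave an adjusted p (0.981%), of which 71 were higher (0.532%) and 60 lower (0.449%) in the double knockout. At an unadjusted edgeR p below 0.05 there were 1854 genes (11.6%), 957 higher (5.97%) and 897 lower (5.6%). Every double knockout library lay above both Sting knockout libraries for 12.7% of genes and below both for 13.8%, and the median difference of all genes was 0.02. The genes described next had the smallest unadjusted p in each direction among genes that averaged at least 5 CPM and whose groups did not overlap. They are given as values, not as changes. All 24 were called by DESeq2 and none by limma-voom, and their edgeR adjusted p ran from 0.0892 to 0.267. No alternative fit turned the direction of any of them, those without double knockout 1 or with a term for Xist included. Their selection left little room for such a turn, so this is no support for them.

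Since the genes were picked for groups that did not overlap, their separation is no result, and no list of their organelles or functions was counted. Among the lower genes, Syvn1 (chr19:6046576-6053718), which encodes the ubiquitin ligase Hrd1 that disposes of misfolded proteins of the endoplasmic reticulum, was at 89.8 and 80.4 CPM in the Sting knockout and 45.6, 55.4 and 50.8 CPM in the double knockout. The groups did not overlap, and the double knockout values were close to those of the Dnmt3a knockout, at 54.8 and 50.7 CPM, while wild type lay between at 63.7 and 57.4 CPM. The difference was -0.75 ± 0.101, with an edgeR adjusted p of 0.0892. The 250 bases before its start (GRCm38.p6, chr19:6046326-6046575, plus strand, RefSeq) are shown because they hold a match to the endoplasmic reticulum stress element (CCAAT, then any 9 bases, then CCACG), in capitals, 44 to 26 bases before the start:
Syvn1: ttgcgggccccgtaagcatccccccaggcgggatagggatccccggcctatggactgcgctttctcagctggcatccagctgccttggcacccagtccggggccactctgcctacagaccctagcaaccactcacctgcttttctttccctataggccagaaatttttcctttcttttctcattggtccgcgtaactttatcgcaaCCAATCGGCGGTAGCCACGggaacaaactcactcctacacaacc
On either strand this element occurred in 37 of 32851 promoter windows of the same length (0.113%). Syvn1 held the only one among 13 windows of the 12 lower genes, of which 10 had a window. Its window was picked for the match, so the lower genes are not compared with all windows. A match of letters is a description and not evidence that a factor binds there.

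Mogs (chr6:83115506-83118902), the glucosidase that trims the first sugar from new N-glycans in the endoplasmic reticulum, was at 210.0 and 210.4 CPM in the Sting knockout and 160, 157 and 155 CPM in the double knockout. The libraries of each group lay close together, and the difference was -0.42 ± 0.0637 (edgeR adjusted p = 0.144). Tmem39a (chr16:38558698-38592162), a membrane protein of the endoplasmic reticulum, was at 64.5 and 62.2 CPM against 38.9, 42.7 and 43.1 CPM (difference -0.61, edgeR adjusted p = 0.0990). Tmem147, another membrane protein of this organelle, differed by -0.44 (edgeR adjusted p = 0.216). Both Sting knockout libraries lay above all 3 double knockout libraries for each of these genes.

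Cox8a (chr19:7215158-7217616), a subunit of cytochrome c oxidase, was at 91.9 and 89.0 CPM in the Sting knockout and 54.2, 59.0 and 64.2 CPM in the double knockout. The Sting knockout stood above the wild-type libraries too, which held 55.2 and 57.9 CPM, and the difference was -0.61 ± 0.0841 (edgeR adjusted p = 0.0892). COX3, encoded on the mitochondrial chromosome and a subunit of the same complex, was at 55.5 and 85.9 CPM against 40.02, 36.1 and 37.6 CPM (-0.90, edgeR adjusted p = 0.207), with a wide gap between the Sting knockout libraries. Atp5g2, a subunit c gene of ATP synthase, was at 109 and 108 CPM against 84.2, 84.8 and 85.9 CPM. Reads of COX3 and Atp5g2 may be shared with near-identical copies elsewhere in the genome, and the sources used here do not give how the counting treated them.

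Odc1 (chr12:17544808-17551502), ornithine decarboxylase, the first enzyme of polyamine synthesis and a target of Myc, was at 360 and 325 CPM in the Sting knockout and 236, 214 and 248 CPM in the double knockout. It also lay lower in the Dnmt3a knockout, at 236 and 219 CPM, than in wild type, at 279 and 313 CPM. Its difference in the double knockout was -0.56 ± 0.0876, with an edgeR adjusted p of 0.149. Bola2, a partner of glutaredoxin in iron-sulphur protein maturation, was at 19.9 and 19.11 CPM against 9.47, 12.3 and 12.7 CPM. H2-Q7, a non-classical MHC class I gene with close copies in the same cluster, was at 25.9 and 23.1 CPM against 15.5, 10.3 and 14.7 CPM (-0.86, edgeR adjusted p = 0.239). All 3 genes were lower in each double knockout library than in either Sting knockout library.

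Among the higher genes, Lgals8 (chr13:12439402-12464977), galectin-8, a lectin that detects damaged endosomes, was at 38.9 and 41.2 CPM in the Sting knockout and 57.4, 65.6 and 62.4 CPM in the double knockout. The difference was 0.62 ± 0.0852 (edgeR adjusted p = 0.0892), and the double knockout values lay at the level of wild type, at 59.8 and 63.0 CPM. Naaa (chr5:92257660-92278181), a lysosomal amidase that hydrolyses N-acylethanolamines, was at 17.2 and 16.2 CPM against 26.8, 27.2 and 24.2 CPM (0.64, edgeR adjusted p = 0.160). Here too wild type, at 26.9 and 28.0 CPM, lay at the level of the double knockout rather than that of the Sting knockout.

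Ctsh (chr9:90054267-90076095), the lysosomal protease cathepsin H, was at 41.8 and 44.1 CPM in the Sting knockout and 69.8, 62.6 and 63.8 CPM in the double knockout. Vcam1 (chr3:116110020-116129688), an adhesion molecule of marrow macrophages that also marks some stem cells, was at 182 and 194 CPM against 325, 277 and 253 CPM. The groups did not overlap for either gene, and the differences were 0.61 and 0.60. Hist2h2be, a polyadenylated H2B histone gene with close copies in the genome, was at 3.20 and 4.96 CPM against 9.18, 8.34 and 9.53 CPM, the level differing by 1.15 on the log2 scale. E2f6, a repressive E2F factor that works with Polycomb proteins, was at 55.7 and 53.4 CPM against 88.7, 78.8 and 68.1 CPM. The other higher genes were the phospholipid flippase Atp10d (22.7 and 21.2 CPM against 42.5, 31.2 and 43.6 CPM), the O-GlcNAc hydrolase Mgea5 (167 and 164 CPM against 219, 218 and 200.5 CPM), the protein kinase Prkca, the guanine nucleotide exchange factor Arhgef11, the microtubule-associated Eml5 and the ectodysplasin receptor adaptor Edaradd, with differences from 0.36 to 1.64.

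**Figure D1:**
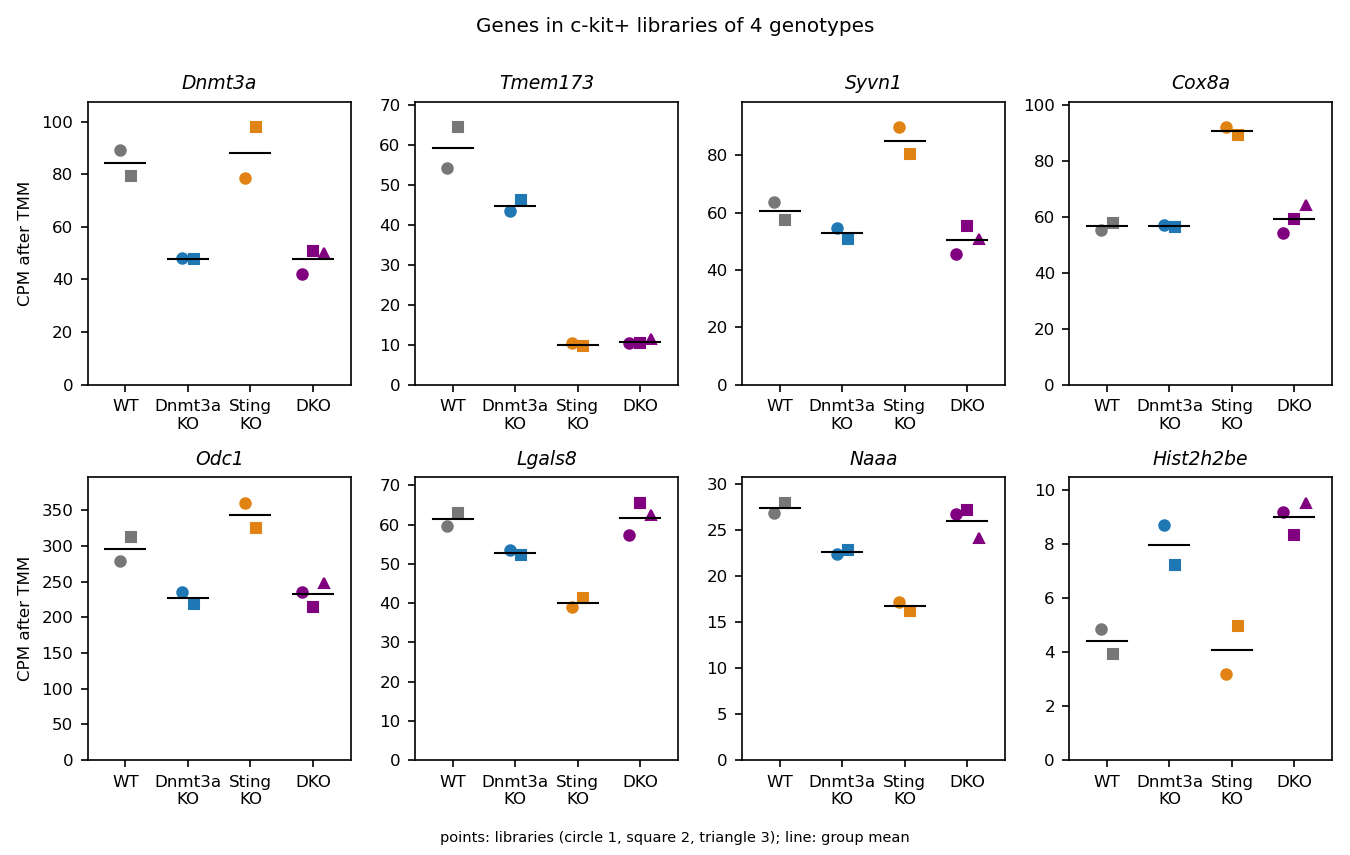
Levels of 8 genes in the 9 c-kit+ libraries, in CPM after TMM scaling, by genotype (WT, wild type; KO, knockout; DKO, double knockout). Each point is a library and each line the mean of its group. Dnmt3a, Syvn1, Cox8a and Odc1 lie lower in all 3 double knockout libraries than in both Sting knockout libraries, Lgals8, Naaa and Hist2h2be lie higher, and Tmem173 is near 10 CPM in all 5 Sting-deficient libraries.

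Interferon-stimulated genes, which Sting signalling induces, did not lie higher as a group after Dnmt3a loss without Sting. Of 55 listed genes 54 were tested, since Isg15 had 0 reads in all 9 libraries. Their median difference was -0.08, beside 0.02 for all genes, with 22 positive and 32 negative, none called by edgeR, and 1 (Samd9l) called higher by DESeq2. At an unadjusted edgeR p below 0.05, 6 of the 54 were higher and 3 lower, beside 5.97% and 5.6% of all genes. Of the 54, 11 did not overlap above the Sting knockout and 6 below it, beside the 12.7% and 13.8% of all genes. With Sting, the same genes had a median difference of 0.75, and 53 of 54 were positive, beside 49.8% of all genes. Of these, 11 were called higher by edgeR, where 91 of all genes were called (0.568%), 49 of them higher (0.306%). The sign of the median without Sting was not stable, from -0.22 with a term for Xist to 0.09 without Sting knockout 1.

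The summed level of the list was 1495 and 1357 CPM in the Sting knockout and 1578, 1433 and 1475 CPM in the double knockout. It was 1522 and 1502 CPM in wild type and 2616 and 2266 CPM in the Dnmt3a knockout. The Dnmt3a knockout pair stood above all 7 other libraries. Among these, both wild-type libraries lay above both Sting knockout libraries, and the double knockout overlapped with both groups. In bulk samples fewer cells of a type and less RNA per cell cannot be told apart.

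Within the list, Oas3 (chr5:120753098-120777684), an enzyme that makes oligoadenylates on binding double-stranded RNA, was at 13.9 and 12.3 CPM in the Sting knockout and 9.76, 5.66 and 10.96 CPM in the double knockout. With Sting it was at 7.92 and 7.04 CPM in wild type and 40.3 and 38.5 CPM in the Dnmt3a knockout, so that the Dnmt3a knockout pair was the highest and wild type and double knockout overlapped. The difference between the contrasts (double knockout minus Sting knockout, less Dnmt3a knockout minus wild type) was -2.97 ± 0.342, with an edgeR adjusted p of 0.0136 that lay between 0.0508 and 0.109 in 6 of 18 alternative fits. Irf7 (chr7:141263183-141266499), the factor that amplifies type I interferon production and was chosen here after its values were seen, was at 7.65 and 6.53 CPM against 5.89, 3.97 and 5.13 CPM without Sting, and at 9.70 and 8.40 CPM against 31.99 and 20.99 CPM with Sting. Its difference between the contrasts was -2.05, with an edgeR adjusted p of 0.0536. Across the list, 32 of 54 genes had a negative difference between the contrasts at an unadjusted edgeR p below 0.05 and none a positive one, beside 559 of all genes lower (3.49%) and 652 higher (4.07%). Both Dnmt3a knockout libraries carried Xist and both wild-type libraries Y transcripts, so genotype and sex cannot be told apart within the contrast with Sting. With a term for Xist 21 of the 54 were lower at an unadjusted p below 0.05 and none was called. DESeq2 called 16 of the 54 lower, beside 84 of 15132 genes (0.555%), and edgeR called Oas3 alone.

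The promoters of Oas3 and Oas1a are shown because they hold the core of the interferon-stimulated response element (GAAA, then any 2 bases, then GAAA), in capitals. The windows are the 250 bases before each start (GRCm38.p6, RefSeq, minus strand), chr5:120777660-120777909 for Oas3, with the match 75 to 66 bases before the start, and chr5:120907526-120907775 for Oas1a, with overlapping matches 20 to 5 bases before it:
Oas3: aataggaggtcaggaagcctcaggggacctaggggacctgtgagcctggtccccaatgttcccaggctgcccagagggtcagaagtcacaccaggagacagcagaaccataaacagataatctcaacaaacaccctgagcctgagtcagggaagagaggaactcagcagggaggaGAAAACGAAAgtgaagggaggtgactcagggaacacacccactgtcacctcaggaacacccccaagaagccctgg
Oas1a: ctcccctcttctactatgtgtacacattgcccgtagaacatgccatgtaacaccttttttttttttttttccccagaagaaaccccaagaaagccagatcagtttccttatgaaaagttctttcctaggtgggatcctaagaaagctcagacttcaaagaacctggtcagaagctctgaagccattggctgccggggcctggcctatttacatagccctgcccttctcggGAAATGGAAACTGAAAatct
On either strand the core occurred in 978 of 32851 windows (2.98%) and in 21 of 51 windows (41.2%) of the interferon-stimulated genes, of which 43 of 54 had a window. It occurred in 0 of 7 windows of the 12 genes with the smallest p that were higher in the double knockout, and in 0 of 13 windows of the 12 that were lower. Of these genes 7 of the 12 higher and 10 of the 12 lower had a window. Oas1a, chosen after its values were seen, was at 13.9 and 10.2 CPM in the Sting knockout and 13.9, 9.94 and 10.3 CPM in the double knockout, and the groups overlapped.

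A few members of the list were nonetheless higher in the double knockout. Samd9l (chr6:3372257-3399571), an antiviral and growth-restraining protein, was at 103 and 76.4 CPM in the Sting knockout and 152, 164 and 113 CPM in the double knockout, a difference of 0.67. Sp100 (chr1:85649948-85709998), a component of nuclear bodies, was at 123 and 117 CPM against 156, 185 and 131 CPM, a difference of 0.39. Neither pair of groups overlapped, and neither gene was called by edgeR. Ifit2, which binds viral RNA and was chosen after its values were seen, was at 26.6 and 30.1 CPM against 38.2, 43.3 and 33.5 CPM (0.43).

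**Figure D2:**
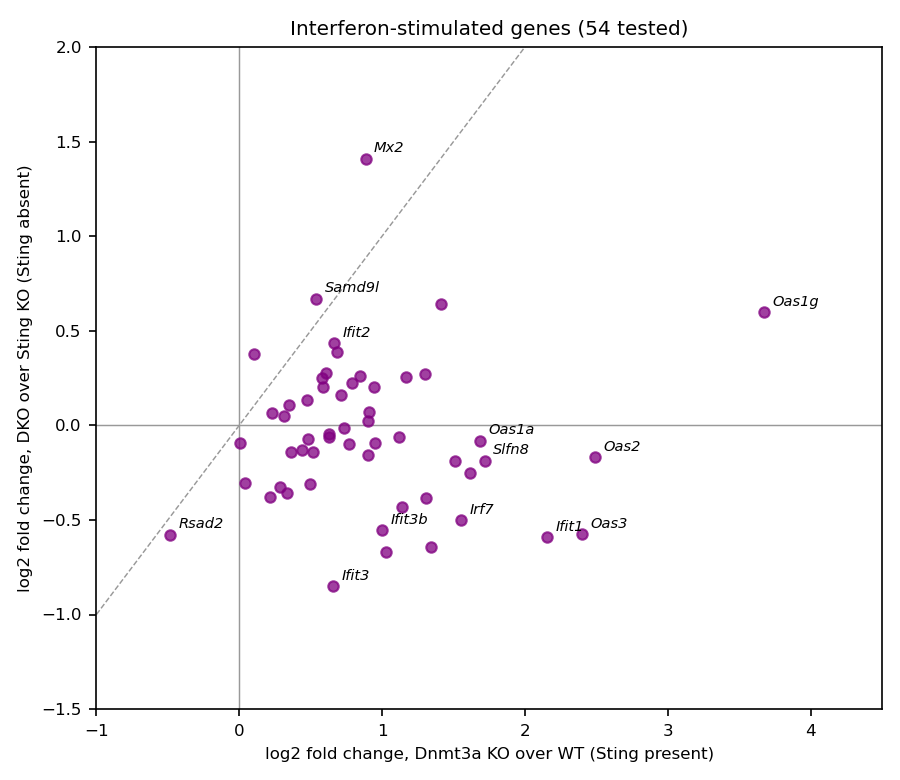
Log2 fold changes of 54 interferon-stimulated genes after Dnmt3a loss, with Sting (x axis, Dnmt3a knockout minus wild type) and without Sting (y axis, double knockout minus Sting knockout). Each point is a gene and the dashed line marks equal change. 53 genes lie to the right of 0 on the x axis and 22 lie above 0 on the y axis.

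Genes of MHC class I and antigen processing, which display peptides from inside the cell and respond to interferon, were mostly lower in the double knockout. All 18 listed genes were tested, and 15 had a negative difference, with a median of -0.22 (-0.25 to -0.19 over the alternative fits). At an unadjusted edgeR p below 0.05, 12 were lower and 1 (H2-T23) higher, where 5.6% of all genes were lower and 5.97% higher. None was called by edgeR, and DESeq2 called 1 lower, H2-Q7. With Sting the median was -0.09. The summed level of the list was 2811 and 2727 CPM in the Sting knockout and 2384, 2467 and 2419 CPM in the double knockout.

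B2m (chr2:122147687-122153082), the light chain of every class I molecule, was at 676 and 629 CPM in the Sting knockout and 591, 569 and 508 CPM in the double knockout. H2-D1, a classical heavy chain, was at 526 and 532 CPM against 448, 491 and 475 CPM. All double knockout libraries lay below both Sting knockout libraries for both genes, and the differences were -0.23 for B2m (edgeR adjusted p = 0.377) and -0.17 for H2-D1. Among members chosen after their values were seen, the immunoproteasome subunit Psmb8 was at 141 and 132 CPM against 90.9, 105 and 120 CPM. Nlrc5, the transactivator of class I genes, was at 41.5 and 35.7 CPM against 24.2, 24.8 and 36.6 CPM, where double knockout 3 lay within the Sting knockout range. The response-element core occurred in 3 of 18 windows of the list (16.7%), those of B2m, H2-T22 and H2-T23. It occurred in 4 of 25 windows of the ribosomal protein genes (16%), so this share was not particular to the MHC class I list. The window of B2m (GRCm38.p6, chr2:122147437-122147686, plus strand, RefSeq) is shown for comparison with the Oas promoters, with the match in capitals 139 to 130 bases before the start:
B2m: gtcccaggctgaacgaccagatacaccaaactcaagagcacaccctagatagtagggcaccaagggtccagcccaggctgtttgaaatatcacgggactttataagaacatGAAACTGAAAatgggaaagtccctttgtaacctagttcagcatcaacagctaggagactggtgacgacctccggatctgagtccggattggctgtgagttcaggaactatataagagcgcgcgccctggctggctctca

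Most eosinophil and megakaryocyte genes had a positive difference, while late neutrophil genes were high in double knockout 1 and 2 only. Of 12 eosinophil genes tested, 11 had a positive difference, beside 52.9% of all genes, with a median of 0.50 (0.35 to 0.71 over the alternative fits), and 7 were higher at an unadjusted edgeR p below 0.05, beside 5.97% of all genes. Epx, eosinophil peroxidase, was at 518 and 429 CPM in the Sting knockout and 681, 547 and 792 CPM in the double knockout (0.51, edgeR adjusted p = 0.398). Prg2 (chr2:84980461-84983632), which encodes major basic protein, a toxin of eosinophil granules, was at 1332 and 1078 CPM against 1606, 1494 and 1999 CPM. Both groups separated for both genes. With Sting the median was -1.28, so the list lay in opposite directions in the 2 contrasts, with wild type highest: its summed level was 5178 and 5631 CPM in wild type, 2373 and 1735 CPM in the Dnmt3a knockout, 2514 and 2119 CPM in the Sting knockout and 3216, 2757 and 3933 CPM in the double knockout.

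Of 21 megakaryocyte and platelet genes, 20 had a positive difference, with a median of 0.54 (0.37 to 0.76) and 0.26 with Sting, and 8 were higher at an unadjusted edgeR p below 0.05, again beside 52.9% positive and 5.97% higher of all genes. Fli1, a factor of the lineage, was at 115 and 133 CPM in the Sting knockout and 125, 153 and 125 CPM in the double knockout, and the groups overlapped. Plek, a substrate of protein kinase C in platelets, was at 113 and 95.5 CPM against 151, 124 and 133 CPM, and each double knockout library was higher. Vwf, von Willebrand factor, chosen after its values were seen, was at 24.6 and 26.0 CPM against 59.9, 32.6 and 36.9 CPM, with double knockout 1 the highest. Xist was read in this library alone among the 5, so a term for Xist only sets this library aside. The list's median was 0.37 with that term and 0.37 without double knockout 1. The part of Xist or sex in the result was not tested.

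Late neutrophil genes had a median difference of 0.65, with 18 of 21 positive and 9 higher at an unadjusted edgeR p below 0.05 (52.9% and 5.97% of all genes). Ngp, a granule protein, was at 3294 and 3334 CPM in the Sting knockout and 7493, 10952 and 2918 CPM in the double knockout, and S100a9, a subunit of calprotectin, at 3104 and 3015 CPM against 5550, 7714 and 3004 CPM. For both genes double knockout 1 and 2 were high and double knockout 3 lay at or below the Sting knockout. The list's median was 0.35 without double knockout 2 and 0.95 without double knockout 3, and it was 0.68 with Sting. The groups did not overlap for 3 of 21 genes, beside 12.7% of all genes.

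Monocyte genes had a median of 0.31 (0.03 to 0.38 over the alternative fits), with 17 of 21 positive and 4 higher at an unadjusted edgeR p below 0.05 (52.9% and 5.97% of all genes), and -0.79 with Sting. Lyz2, lysozyme, was at 706 and 703 CPM in the Sting knockout and 2060, 1984 and 932 CPM in the double knockout (1.24, edgeR adjusted p = 0.350). Ly6c2, a surface marker of classical monocytes, was at 521 and 477 CPM against 712, 903 and 549 CPM. Marrow macrophage genes had a median of 0.16, which ran from -0.12 to 0.45 over the alternative fits, and of -1.61 with Sting. Their summed level was 749 and 688 CPM in the Sting knockout and 1087, 690 and 978 CPM in the double knockout, and these groups overlapped. It was 3043 and 2820 CPM in wild type and 1091 and 1265 CPM in the Dnmt3a knockout. Slc40a1, the iron exporter of macrophages, was at 123 and 143 CPM against 222, 164 and 179 CPM (0.50, edgeR adjusted p = 0.340), and the groups did not overlap.

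**Figure D3:**
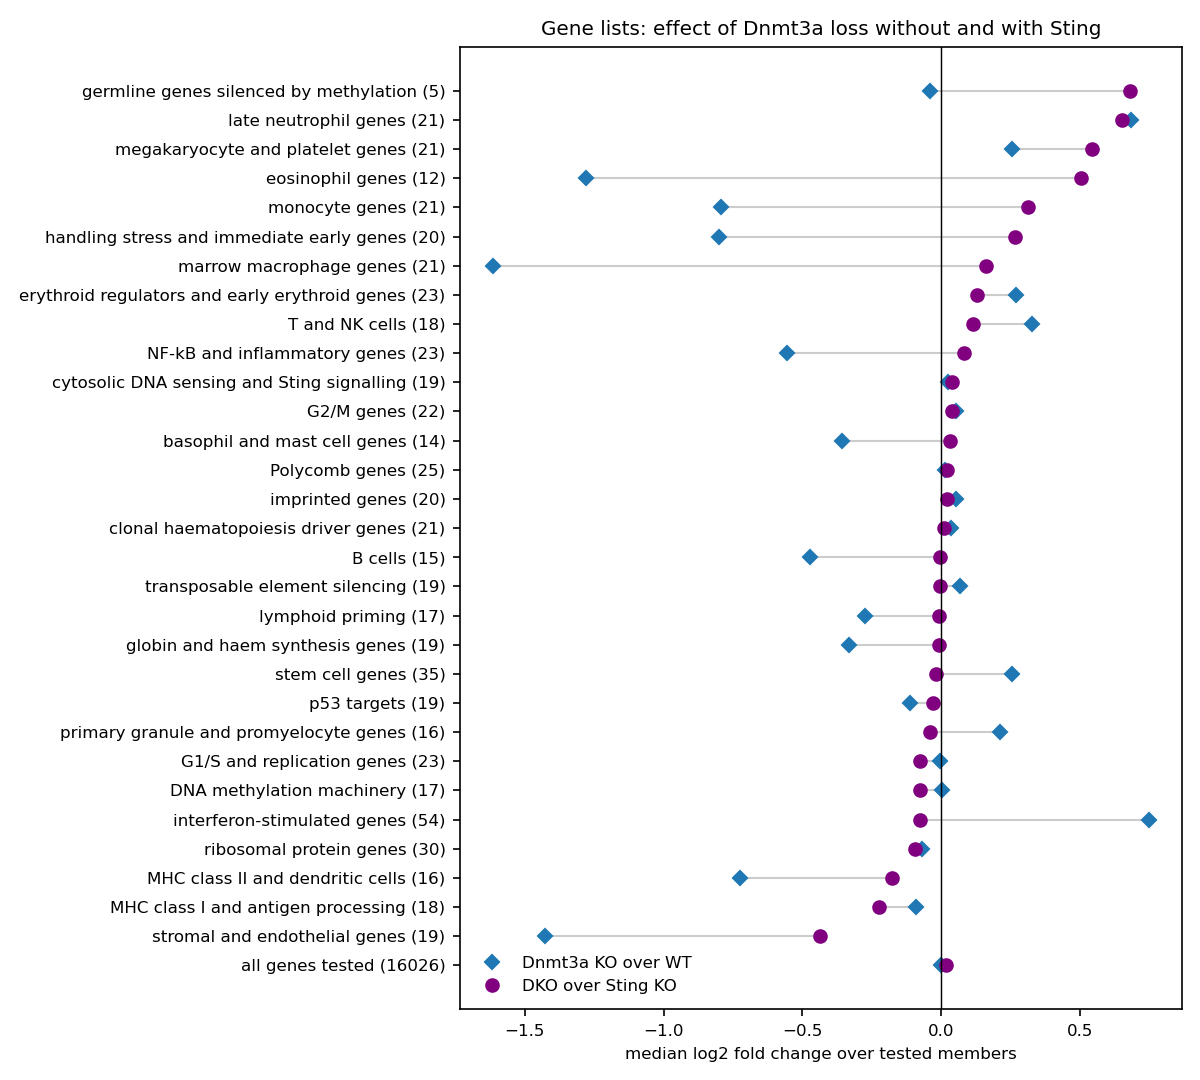
Median log2 fold change of each gene list after Dnmt3a loss without Sting (double knockout minus Sting knockout) and with Sting (Dnmt3a knockout minus wild type). Each row is a list and each point a contrast. Interferon-stimulated genes lie at -0.08 without Sting and 0.75 with it, eosinophil genes at 0.50 and -1.28, and marrow macrophage genes at 0.16 and -1.61.

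Stem and progenitor identity genes had a median close to that of all genes, 0.02. Of 35 stem cell genes 17 were positive, with a median of -0.02. At an unadjusted edgeR p below 0.05, 4 were higher, Mllt3, Erg and Vwf among them, and none lower, beside 5.97% and 5.6% of all genes. The groups did not overlap above the Sting knockout for 6 and below it for 2, beside 12.7% and 13.8% of all genes. DESeq2 called 1 higher. Kit was at 302 and 337 CPM in the Sting knockout and 340, 369 and 328 CPM in the double knockout, and these ranges overlapped. The medians of lymphoid priming, B cell, primary granule, globin and haem, and basophil and mast cell genes lay between -0.04 and 0.03. Over the alternative fits they were not stable in sign. They ran from -0.18 to 0.26 for lymphoid priming, -0.31 to 0.42 for B cell and -0.17 to 0.07 for primary granule genes. For globin and haem genes they ran from -0.21 to 0.24, and for basophil and mast cell genes from -0.15 to 0.14. Stromal and endothelial genes, markers of cells outside the blood lineages, had a median of -0.44, and 2 of 19 were lower at an unadjusted edgeR p below 0.05 (5.6% of all genes). Their summed level was 192 and 265 CPM in the Sting knockout and 123, 156 and 371 CPM in the double knockout, where double knockout 3 was the highest and the other two the lowest.

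Ribosomal protein genes differed by little but in one direction. Of 30, 28 had a negative difference, beside 7555 of all 16026 genes, with a median of -0.09 (-0.11 to -0.07). The groups did not overlap below the Sting knockout for 19, where 13.8% of all genes did so. Rpl4 was at 2285 and 2166 CPM against 2081, 2103 and 2096 CPM, and Rplp0 at 1857 and 1893 CPM against 1722, 1704 and 1748 CPM. No ribosomal gene was called by edgeR or DESeq2, and 7 were lower at an unadjusted edgeR p below 0.05, beside 5.6% of all genes. G1/S and replication genes had a median of -0.07, with 20 of 23 negative, again beside 7555 of all 16026 genes. Their groups did not overlap below the Sting knockout for 11 and above it for 2, beside 13.8% and 12.7% of all genes. G2/M genes had a median of 0.04. Differences also moved with base composition and with transcript length, counted at an unadjusted edgeR p below 0.05. Of the fifth of genes with the lowest GC content 236 were higher and 95 lower, and of the fifth with the highest 93 were higher and 271 lower. Of the fifth with the shortest transcripts 110 were higher and 232 lower, and of the fifth with the longest 249 were higher and 139 lower. No alternative fit adjusted for length. In a fit with GC offsets the median was -0.11 for the ribosomal list, -0.24 for the MHC class I list and -0.01 for all genes. The part of GC content or transcript length in the list medians was not tested.

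Of 17 DNA methylation genes, 12 had a negative difference and 8 lay below both Sting knockout libraries in every double knockout library, beside 13.8% of all genes. At an unadjusted edgeR p below 0.05, 3 were lower, beside 5.6% of all genes (Dnmt3a itself, the methyl-CpG binding family member Mbd3 and the isocitrate dehydrogenase Idh2), and the median was -0.08. Dnmt1, the maintenance methyltransferase, was at 634 and 671 CPM in the Sting knockout and 611, 621 and 626 CPM in the double knockout. Uhrf1, which guides Dnmt1 to newly replicated DNA, was at 396 and 381 CPM against 376, 380 and 358 CPM, and both genes differed little although their groups did not overlap. Of 20 germline genes that DNA methylation silences in somatic cells, only 5 passed the filter on low counts, and Ddx4, a germ cell helicase, was at 1.196 and 1.33 CPM against 2.40, 2.31 and 2.29 CPM (0.88, edgeR adjusted p = 0.361). Genes of cytosolic DNA sensing had a median of 0.04, with Enpp1, which degrades cGAMP, higher at an unadjusted edgeR p below 0.05 (0.68) and 4 of 19 lower, beside 5.97% and 5.6% of all genes. Polycomb, imprinted, p53 target, transposable element silencing and clonal haematopoiesis driver genes had medians between -0.03 and 0.02. Inflammatory genes had a median of 0.08 (-0.17 to 0.18 over the alternative fits). T and NK cell genes had a median of 0.11 (-0.02 to 0.32 over the alternative fits). Early erythroid genes had a median of 0.13, which was -0.11 without double knockout 1. MHC class II genes had a median of -0.18, and handling stress genes of 0.27, which was -0.33 without double knockout 2.

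Whether the effect of Dnmt3a loss differed without and with Sting was tested directly as the difference between the 2 contrasts. Of 16026 genes edgeR called 24 (0.15%), 12 with a more positive effect without Sting (0.0749%) and 12 with a more negative one (0.0749%), and 1211 had an unadjusted p below 0.05 (7.56%). DESeq2 called 200 (1.32%), 116 of them more positive (0.767%) and 84 more negative (0.555%). With a term for Xist, edgeR called 5 genes, and sex and genotype cannot be told apart among the 4 libraries with Sting. Calls are described below by the 4 groups, since the same difference between contrasts can come from any of them.

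Vcam1 was at 546 and 555 CPM in wild type, 314 and 305 CPM in the Dnmt3a knockout, 182 and 194 CPM in the Sting knockout and 325, 277 and 253 CPM in the double knockout. Both single knockouts lay below wild type, and the double knockout lay at the level of the Dnmt3a knockout. The difference between contrasts was 1.43 ± 0.146 (edgeR adjusted p = 0.0101), and the call was lost in 2 of 18 alternative fits. Slc40a1 had the same order at the top, with 405 and 393 CPM in wild type and 217 and 225 CPM in the Dnmt3a knockout (1.35, edgeR adjusted p = 0.0264). Ctsh was at 86.1 and 71.6 CPM in wild type and 52.3 and 49.2 CPM in the Dnmt3a knockout (1.24, edgeR adjusted p = 0.0136). The call for Ctsh was lost in 6 of 18 alternative fits.

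Of 12 eosinophil genes tested, 4 were called with a positive sign, where 0.0749% of all genes were. Prg2 was at 2736 and 2884 CPM in wild type and 1146 and 875 CPM in the Dnmt3a knockout, and its difference between contrasts was 1.97 ± 0.225 (edgeR adjusted p = 0.0136). Ear2, an eosinophil ribonuclease with close copies, was at 392 and 407 CPM in wild type, 148 and 104 CPM in the Dnmt3a knockout, 142 and 136 CPM in the Sting knockout and 213, 171 and 265 CPM in the double knockout (2.30, edgeR adjusted p = 0.0136). For both genes wild type was highest and the double knockout lay above the Sting knockout. Ear1, another ribonuclease, and Alox15, a lipoxygenase, were the other eosinophil genes called. The calls of Prg2 and Ear2 were lost in 5 and 6 of 18 alternative fits.

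Gpr137b (chr13:13357620-13393644), a lysosomal membrane protein, was at 15.6 and 11.3 CPM in wild type, 2.75 and 2.24 CPM in the Dnmt3a knockout, 1.11 and 1.42 CPM in the Sting knockout and 5.72, 5.05 and 9.66 CPM in the double knockout. The difference was 4.85 ± 0.476 (edgeR adjusted p = 0.00937), with a pseudogene copy nearby whose reads may be shared, and the call was lost in 2 of 18 alternative fits. Some called genes separated wild type from all 3 mutant genotypes. Apobec3 (chr15:79892058-79918218), a cytidine deaminase that restricts retroviruses, was at 67.3 and 68.5 CPM in wild type, 234 and 215 CPM in the Dnmt3a knockout, 230 and 224 CPM in the Sting knockout and 193, 192 and 152 CPM in the double knockout (-2.07 ± 0.152, edgeR adjusted p = 0.0021). All 7 mutant libraries lay at more than the wild-type level, and the double knockout was the lowest of them.

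Pnp2 (chr14:50956141-50964751), a copy of the purine nucleoside phosphorylase gene, was at 0.188 and 0.545 CPM in wild type and between 11.1 and 17.5 CPM in all 7 mutant libraries (-5.11 ± 0.440, edgeR adjusted p = 0.00437). Rnase12, a gene of the same chromosome, was at 0.282 and 0.223 CPM in wild type and between 3.74 and 6.88 CPM in the mutants (-3.48, edgeR adjusted p = 0.0133). Neither gene was called between double knockout and Sting knockout. The sources used here do not give strain or breeding, so the genotype and any other difference between wild-type and mutant mice cannot be told apart for these genes. The predicted gene Gm6548 was highest in the Dnmt3a knockout, at 52.7 and 47.4 CPM, and lowest in wild type, at 10.9 and 15.4 CPM (-2.06, edgeR adjusted p = 0.0136). The calls of Rnase12 and Gm6548 were each lost in 5 of 18 alternative fits.

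**Figure D4:**
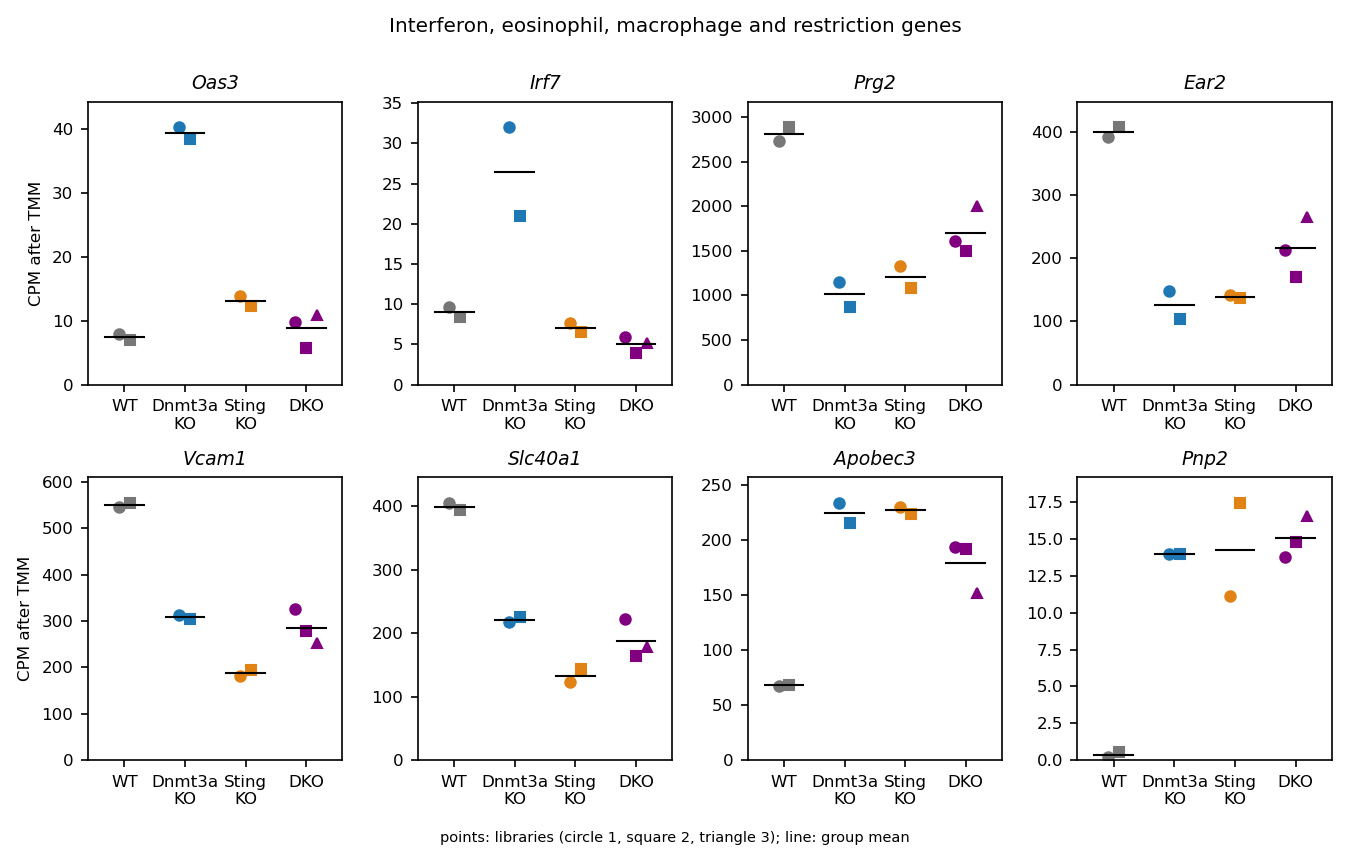
Levels of 8 genes in the 9 c-kit+ libraries by genotype, in CPM after TMM scaling. Each point is a library and each line the mean of its group. Oas3 and Irf7 are high in the Dnmt3a knockout pair, Prg2, Ear2, Vcam1 and Slc40a1 are highest in wild type, and Apobec3 and Pnp2 are lowest in wild type.

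Transposable elements as a whole were not distinguishable between the groups at this number of libraries. Reads of repeats amounted to 3.24 and 3.36 per 100 gene reads in the Sting knockout and 3.34, 3.61 and 3.46 in the double knockout, that is 3.30 ± 0.0830 (SD, n = 2) against 3.47 ± 0.136 (SD, n = 3). The ranges overlapped, and a two-sided exact permutation test over the 10 splits gave p = 0.4, adjusted to 0.55 over the 11 totals and classes tested. The smallest p that this design allows is 0.2. LINE reads were at 0.520 and 0.526 per 100 gene reads against 0.577, 0.617 and 0.572, and SINE reads at 1.65 and 1.67 against 1.73, 1.89 and 1.74. For both classes each double knockout library was higher, the exact permutation p was 0.2, and the adjusted p was 0.314. ERV1 reads went the other way, at 0.188 and 0.210 against 0.133, 0.152 and 0.155 per 100 gene reads (exact permutation p = 0.2).

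Of 916 subfamilies tested, edgeR called 3 (0.328%), all of the ERV1 family and all lower in the double knockout (0.328%), and 0 higher (0%). This split depended on the libraries: without double knockout 3 there were 12 calls, 6 of them higher, and without Sting knockout 1 there were 6 calls, 3 of them higher (IAPLTR2b, ERVB4_2-LTR_MM and Lx). With the replicate number as a block there were 12 calls, 6 of them higher. No other library shared the number of double knockout 3, so this block also sets that library aside. At an unadjusted p below 0.05 there were 77 (8.41%), of which 69 were higher (7.53%) and 8 lower (0.873%). The median difference of the subfamilies was 0.12, with 703 of 916 positive, and it was 0.16 with Sting, where edgeR called 3 (0.328%), 2 higher (0.218%) and 1 lower (0.109%). Levels of subfamilies are in RPM, repeat reads scaled to gene reads and by TMM as the CPM of genes are, and the sources used here do not give how reads that map to several copies were assigned. With library sizes taken from the repeat reads themselves, 0 subfamilies were called.

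RLTR4_MM-int, the internal part of a murine leukaemia virus-like provirus, was lower in the double knockout than in the Sting knockout. It was at 771 and 562 RPM in the Sting knockout and 226, 173 and 290 in the double knockout. The groups were far apart, and the difference was -1.53 ± 0.209 (edgeR adjusted p = 0.00116). With Sting it was at 207 and 206 RPM in wild type and 544 and 319 RPM in the Dnmt3a knockout, so the 2 contrasts differed in sign. The wild-type values lay within the double knockout range, and the Sting knockout pair was the highest. Their difference was -2.60 (edgeR adjusted p = 0.000421). RLTR4_Mm, the long terminal repeat of the same element, was at 281 and 242 RPM against 108, 91.8 and 144. The difference was -1.19 on the log2 scale (SE 0.166, edgeR adjusted p = 0.00116). Wild type held 139 and 145 and the Dnmt3a knockout 199 and 139 RPM, and the contrasts differed by -1.44 (edgeR adjusted p = 0.00697).

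MuLV-int, internal sequence of murine leukaemia viruses, was at 72.7 and 143 RPM in the Sting knockout and 47.7, 50.9 and 55.2 in the double knockout (-1.08 ± 0.187, edgeR adjusted p = 0.0102). The call rested on Sting knockout 2: without it the difference was -0.50 with an edgeR adjusted p of 0.286. DESeq2 did not call it either, with an adjusted p of 0.0766. Wild type was at 97.0 and 106 and the Dnmt3a knockout at 48.7 and 57.2 RPM. IAPEY4_I-int, an intracisternal A particle sequence, was not called in the double knockout, at 102 and 75.6 RPM against 103, 105 and 167 (0.50, edgeR adjusted p = 0.502). Its contrasts differed by 1.65 (edgeR adjusted p = 0.00424), with wild type at 184 and 195 and the Dnmt3a knockout at 90.6 and 79.5 RPM. The difference between contrasts was called for 4 of 916 subfamilies (0.437%), 1 positive (0.109%) and 3 negative (0.328%): these 3 (both RLTR4 parts and IAPEY4_I-int) and MTB_Mm-int.

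**Figure D5:**
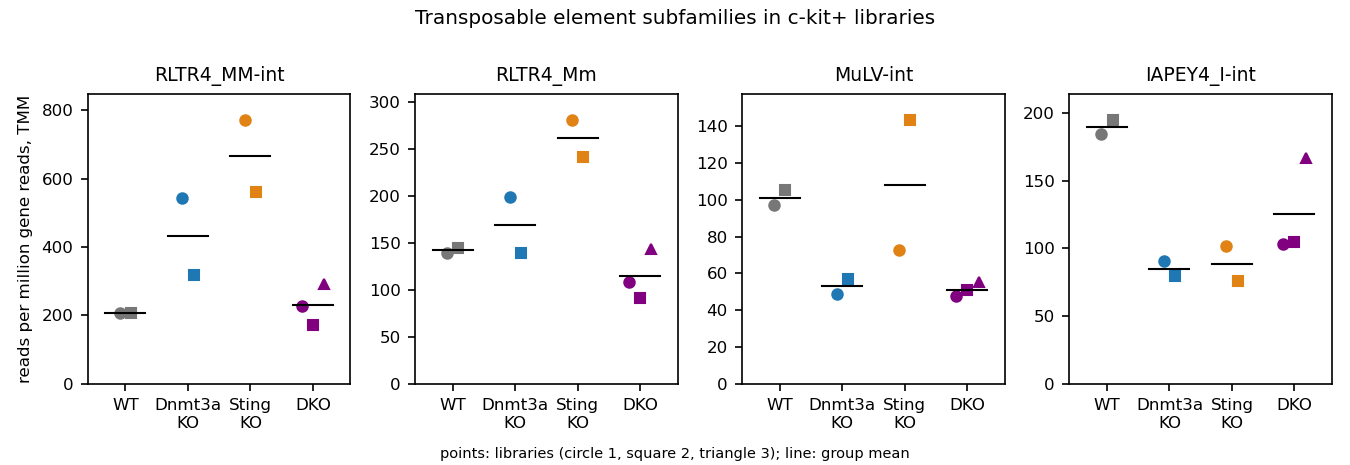
Levels of 4 endogenous retrovirus subfamilies, in RPM (repeat reads scaled to gene reads and by TMM), in the 9 c-kit+ libraries by genotype. Each point is a library and each line the mean of its group. RLTR4_MM-int and RLTR4_Mm are highest in the Sting knockout pair, MuLV-int is low in all 3 double knockout libraries, and IAPEY4_I-int is highest in wild type.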

How the data were processed

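Per the labels, c-kit+ bone marrow cells were profiled by poly(A) RNA sequencing after a modified SMART-Seq2 protocol. Per the submitters' processing notes, reads were processed with Trim Galore 0.6.7, HISAT2 and featureCounts 2.0.1 on mm10, and DESeq2 1.34.0 is also named. The authors deposited raw counts, whole numbers per gene and per transposable element subfamily. For strand, annotation and multimapping reads the settings were not given in the sources used here, so overlapping genes and near-identical copies cannot be told apart. Of the 40 columns in each table, 31 were not used here.

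The 9 c-kit+ libraries were fitted together with edgeR 4.0.16 (R 4.3.3): TMM, filterByExpr (minimum count 10, minimum total 15), quasi-likelihood test, Benjamini-Hochberg adjustment over the 16026 genes tested of 35976, called at an adjusted p under 0.05. Residual degrees of freedom were 5. Subfamilies (916 tested of 1146) used gene library sizes and TMM factors. Repeat reads per 100 gene reads were compared by a two-sided exact permutation test. Gene reads were 27.4 to 40.0 M per library, and no replicate pair agreed within sampling noise (chi-square per degree of freedom 6.69 to 68.2).

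The members and the 30 gene lists were chosen with earlier results of these data known. Named genes were Dnmt3a and Tmem173, up to 12 genes per direction (called genes first, otherwise the smallest unadjusted p, mean of at least 5 CPM over the 5 libraries, no overlap, no predicted-gene symbol), the called or else the 2 most abundant members of each list, and up to 5 called genes per direction of the difference between contrasts. The same limit of 5 per direction held for subfamilies. Genes said to be chosen after their values were seen, and list members named only in a count, fall outside this rule. A few genes that meet the rule or a count are not reported here.

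Alternatives were DESeq2 1.42.0, limma-voom (limma 3.58.1), other size factors, no filter, a replicate block, a term for Xist, no sex chromosomes, fewer libraries and leaving out each library. GC offsets were added after seeing the data. Only double knockout 1 differed in Xist from the rest of its group, so the term for Xist rested on that library. Symbols matched RefSeq for 32501 genes and, by older symbol, 1005 more. Positions are GRCm38, and promoters are from RefSeq on GRCm38.p6. Scripts were tested on simulated data.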

Additional observations from a re-analysis of the deposited data

Results flagged for a closer look

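The difference between the 2 contrasts of Dnmt3a loss (without Sting minus with Sting, log2) passed the edgeR threshold for 24 genes and 4 subfamilies. Those of the 24 that the naming rule picked, and all 4 subfamilies, are marked for a closer look. The difference was positive for Lgals8 at 0.84, Ctsh at 1.24, Slc40a1 at 1.35, Vcam1 at 1.43, Prg2 at 1.97, Ear2 at 2.30 and Gpr137b at 4.85. It was negative for Gm6548 at -2.06, Apobec3 at -2.07, Oas3 at -2.97, Rnase12 at -3.48 and Pnp2 at -5.11. Among subfamilies it was positive for IAPEY4_I-int at 1.65 and negative for RLTR4_Mm at -1.44, MTB_Mm-int at -1.56 and RLTR4_MM-int at -2.60. For Oas3 the Dnmt3a knockout pair stood apart from the other 7 libraries, for Apobec3, Pnp2 and Rnase12 the wild-type pair did, and for RLTR4_MM-int the double knockout lay near wild type. The causes were not tested.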

How the results depend on the processing

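edgeR called 0 genes, and 408 without the filter on low counts. DESeq2 called 131. A replicate block in the fit of only double knockout 1 and 2 and Sting knockout 1 and 2 called 2. GC offsets, chosen after seeing the data, called 1, and 23 with the replicate block. Leaving out 1 library at a time called 0 to 16, the most without double knockout 3, then 9 without Sting knockout 1, 6 without Sting knockout 2 and 2 without double knockout 2. The difference between contrasts was called for 24 genes, against 200 by DESeq2, 59 by limma-voom, 446 without the filter, 5 with the term for Xist, 41 with block and GC offsets, and 2 to 128 leaving out 1 library (128 without double knockout 2, 2 without Dnmt3a knockout 2). Of subfamilies 3 were called, 12 with the replicate block, 0 with repeat library sizes and 2 to 12 leaving out 1 library (12 without double knockout 3, 6 without Sting knockout 1). The difference between contrasts was called for 4 subfamilies and for 0 with repeat library sizes. Same-numbered libraries deviated together with correlations of 0.0474 and 0.0663 for the 2 shared numbers, so they were not taken as paired. The replicate block called 0 genes and 23 for the difference between contrasts. It also sets double knockout 3 aside, since no other library shared its number. The median of the interferon-stimulated genes ran from -0.22 to 0.09 and was positive without Sting knockout 1 (0.09) and without double knockout 2 (0.05). Where a group was left with 1 library, that library is assumed to vary like the other groups. Of 660 alternative values for single genes, 569 kept their direction and side of the threshold, 54 passed it, 37 lost it and 0 turned. Of 45 for the 3 subfamilies, 40 kept both and 5 lost the threshold. These genes and subfamilies were picked for groups that did not overlap or for a call, so few could turn. The causes were not tested.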

Other observations

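The following genes were chosen after their values were seen. Of 14 genes tested between 12 and 14 Mb on chromosome 13, the stretch around Lgals8, 6 lay above the Sting knockout in every double knockout library. A further 4 lay below it and 4 overlapped, Heatr1 next to Lgals8 among them. Of all genes 12.7% lay above and 13.8% below. Lgals8 and Edaradd had been picked for groups that did not overlap, and the stretch was chosen around Lgals8. Edaradd was at 2.92 and 1.77 CPM in the Sting knockout and 5.28, 10.1 and 6.58 CPM in the double knockout, while the oxidoreductase gene Ero1lb was at 52.8 and 51.7 CPM against 35.5, 23.9 and 22.2 CPM (-0.94). Gpr137b-ps, a pseudogene copy of Gpr137b, was at 5.00 and 5.13 CPM against 2.64, 1.19 and 0.675 CPM (-1.76). The groups did not overlap for any of these 3 genes.

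Bhlha15, which encodes the secretory-cell factor Mist1, was at 6.73 and 5.92 CPM in the Sting knockout and 2.05, 2.14 and 2.91 CPM in the double knockout (-1.41, edgeR adjusted p = 0.144). Txndc11, a thioredoxin-domain protein of the endoplasmic reticulum, was at 88.4 and 87.9 CPM against 57.1, 71.4 and 63.9 CPM (-0.46).

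The Sting knockout libraries differed widely from each other for some transcripts. LOC108169013 had 20517 reads in Sting knockout 2 but 2 in Sting knockout 1, 0 to 2 in the double knockout and Dnmt3a knockout libraries, and 13940 and 18656 in wild type. Gm39972 had 107 and 716 reads in the Sting knockout and 1, 0 and 0 in the double knockout. Rec8, a meiotic cohesin subunit, was at 3.53 and 14.7 CPM in the Sting knockout and 1.47, 1.49 and 2.32 CPM in the double knockout.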
